A study of Mus musculus with 2 samples.

Results

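The H2 region of mouse chromosome 17 holds the genes of the major histocompatibility complex (MHC), and its chromatin was described here in the left cerebral cortex. The genes were taken from the mm10 annotation as every protein-coding gene of chromosome 17 whose symbol starts with H2-, together with B2m, Tap1, Tap2, Tapbp, Ciita and Nlrc5. This gave 40 of 21938 protein-coding genes: 24 class I genes, 9 class II genes, 4 helpers of class I (B2m, Tap1, Tap2 and Tapbp), 2 regulators (Ciita and Nlrc5) and H2-Ke6, a neighbour that carries the prefix but belongs to neither class. Both animals were females of B6CASTF1/J at an age of 36 days. Each of the 2 gave 1 DNase-seq library, and they form a single group with no treatment named. B6CASTF1/J animals are the first-generation cross of C57BL/6J and CAST/EiJ, so each carries 1 H2 region from either strain, while the reference sequence is that of C57BL/6J. DNase-seq measures where the nuclease DNase I cuts open chromatin. With 1 group no comparison between conditions was possible, and the genes are described by counts and levels beside all protein-coding genes, with no test.

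MHC class I molecules are made of a heavy chain and beta-2 microglobulin, and they show peptides from inside the cell to CD8+ T cells. Class II molecules are pairs of an alpha and a beta chain, and they show peptides from outside the cell to CD4+ T cells. Class I is made by most nucleated cells but at low levels in neurons, and class II is mostly restricted to antigen presenting cells, which in brain include microglia. Promoters of both classes share the SXY module, in which RFX proteins bind the X1 box, CREB or ATF proteins the X2 box (a cyclic AMP response element), and NF-Y the Y box, a reversed CCAAT. NLRC5 for class I and CIITA for class II dock on these proteins and activate the gene. Class I promoters also carry upstream sites for NF-kappa B and for interferon regulatory factors (IRF).

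The promoter sequences are shown to let the words of the SXY module be seen beside the footprints. They were picked after their values were seen, so no share is drawn from them alone. Each line gives the stretch of the open region that lies before the gene's RefSeq start (RefSeq sequence, GRCm38.p6, the mm10 assembly), read on the gene's strand. For H2-Ab1, which has no entry in the promoter table used, the stretch before the GENCODE start is given. The table held 34 of the 40 genes. Capitals mark bases that lay inside a footprint, a short stretch of fewer cuts within open chromatin, in both mice. The first 5 lines are class I genes.
H2-K1, chr17:34000349-34000500 (- strand): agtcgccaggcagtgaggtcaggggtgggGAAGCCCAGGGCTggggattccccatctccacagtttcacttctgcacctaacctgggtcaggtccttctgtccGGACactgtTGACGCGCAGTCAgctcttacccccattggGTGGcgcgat
H2-D1, chr17:35262921-35263093 (+ strand): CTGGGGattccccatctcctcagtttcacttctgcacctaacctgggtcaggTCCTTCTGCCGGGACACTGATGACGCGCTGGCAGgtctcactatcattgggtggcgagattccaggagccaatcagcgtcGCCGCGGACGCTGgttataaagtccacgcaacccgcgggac
H2-Q4, chr17:35379441-35379616 (+ strand): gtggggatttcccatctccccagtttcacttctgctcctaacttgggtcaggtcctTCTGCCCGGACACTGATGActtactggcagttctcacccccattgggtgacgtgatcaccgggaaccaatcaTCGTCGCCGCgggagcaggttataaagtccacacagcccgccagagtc
H2-Q7, chr17:35438981-35439154 (+ strand): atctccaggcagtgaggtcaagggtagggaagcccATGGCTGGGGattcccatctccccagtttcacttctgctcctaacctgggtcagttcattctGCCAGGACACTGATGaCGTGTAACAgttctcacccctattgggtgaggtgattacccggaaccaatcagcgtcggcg
H2-M3, chr17:37270141-37270233 (+ strand): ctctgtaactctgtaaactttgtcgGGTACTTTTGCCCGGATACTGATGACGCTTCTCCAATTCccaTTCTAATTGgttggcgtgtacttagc
B2m, chr2:122147561-122147686 (+ strand): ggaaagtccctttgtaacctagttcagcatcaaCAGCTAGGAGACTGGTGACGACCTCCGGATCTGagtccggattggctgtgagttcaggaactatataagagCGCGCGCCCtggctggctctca
Tap1, chr17:34187341-34187555 (+ strand): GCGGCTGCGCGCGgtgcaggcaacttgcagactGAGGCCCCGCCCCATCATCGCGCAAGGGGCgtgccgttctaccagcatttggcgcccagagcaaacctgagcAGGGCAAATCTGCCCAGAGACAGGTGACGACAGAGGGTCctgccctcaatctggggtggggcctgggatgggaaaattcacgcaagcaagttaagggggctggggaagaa
H2-Ab1, chr17:34263096-34263208 (+ strand): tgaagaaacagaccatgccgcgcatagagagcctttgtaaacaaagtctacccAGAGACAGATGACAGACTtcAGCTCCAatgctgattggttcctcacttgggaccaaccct
H2-Aa, chr17:34287825-34288000 (- strand): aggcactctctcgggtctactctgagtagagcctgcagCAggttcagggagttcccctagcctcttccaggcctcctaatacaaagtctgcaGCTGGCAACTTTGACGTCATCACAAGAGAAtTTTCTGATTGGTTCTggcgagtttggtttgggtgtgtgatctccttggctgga
H2-Eb1, chr17:34305681-34305866 (+ strand): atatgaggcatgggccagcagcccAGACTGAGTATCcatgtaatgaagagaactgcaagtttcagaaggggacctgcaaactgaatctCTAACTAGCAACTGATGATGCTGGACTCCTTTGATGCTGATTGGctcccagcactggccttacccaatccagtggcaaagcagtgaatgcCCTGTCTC

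The cyclic AMP response element was searched as TGACG on both strands. With the RefSeq start as position 0, TGACG began at -40 in H2-K1, -101 in H2-D1, -46 in H2-M3, -78 in B2m and -86 in Tap1. All 5 bases lay inside footprints of both mice in each of these genes, and also in H2-Aa, where both strands of a palindrome matched at -73 and -70. H2-Q7 was covered over 4 bases in replicate 1 and 5 in replicate 2. In H2-Q4 the word at -73 was covered in replicate 2 only. It lies after the ATTGG at -79, whereas in H2-K1, H2-D1, H2-Q7 and B2m TGACG lies before the ATTGG. The letters ACACTGATGA of H2-Q4, which in H2-D1 run on into a TGACG, lay inside footprints of both mice. H2-T22, also open, had a TGACG outside shared footprints. H2-T23, Tap2 and Tapbp had none from 250 bases before to 50 bases after their main starts. The open regions of H2-T23 and Tap2 lie outside that stretch, and those of Tapbp almost wholly, so their open sequence was not searched. The upstream boxes looked different. The IRF word GAANNGAAA occurred in reverse in H2-K1, H2-D1, H2-Q4 and H2-Q7, between -153 and -89, and no base of it lay in a footprint of either mouse. The kappa B word GGGNNTTCC of the same 4 genes was covered in full only in H2-D1 and only in replicate 1. Of the printed class I stretches, only that of H2-M3 had a CCAAT, on either strand, covered in full in both mice (at -36). That word is on the gene's strand. The reversed CCAAT of H2-M3, at -21, was covered over 4 bases in each mouse.

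The X1 and Y words together were found in 2 of the 4 open class II genes, H2-Eb1 and H2-Ab1. In H2-Eb1 the X1 word AGNNACNGA at -92 was followed by ATTGG, and the whole stretch from X1 to Y lay inside footprints of both mice. In H2-Ab1 the same arrangement began at -60. There the X1 word was fully covered in both mice, while the ATTGG was covered in full in replicate 1 and over 0 bases in replicate 2. H2-Aa lacked the X1 word, and its ATTGG at -47 was covered in full in both mice. The main start of H2-DMa, which lies near starts of Brd2, had none of the words searched. Other starts of H2-DMa were not searched, among them those at its peak near no other coding gene's start.

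For scale, the same words were counted from 250 bases before to 50 bases after the main start of all 21938 protein-coding genes, on both strands. An X1 word followed within 40 bases by ATTGG occurred in 0.552% of these promoters, in 3 of 9 class II genes (H2-Ab1, H2-Eb1 and H2-Eb2) and in 0 of 24 class I genes. The X1 word alone occurred in 16.4%, in 6 of 9 class II and 8 of 24 class I genes. Only this form of the X1 box was searched, so an X1 box spelled otherwise is not counted. The IRF word occurred in 7.43% of all promoters, in 8 of 24 class I genes and in 0 of 9 class II genes. For the kappa B word the share was 6.31%, with 5 class I and 2 class II genes. The short words were more common. CCAAT occurred in 38.8% of all promoters, in 19 of 24 class I and 7 of 9 class II genes. TGACG occurred in 23.7%, in 10 of 24 class I and 1 of 9 class II genes. CCAAT is the reverse complement of the Y box letters ATTGG, so both name the same word. Coverage was then counted for words that lay inside an open region of both mice. Footprints of both mice covered TGACG in full in 31.9% of 4322 cases over all promoters. In the MHC genes it was 6 of 10 cases, with the H2-Aa palindrome, matched on both strands, counted as 2 of the 6. The IRF word was covered in full in 2.03% of 296 cases, and in 0 of 3 in the MHC genes. For CCAAT this was 11.6% of 5467 cases, and 3 of 18 in the MHC genes, with 13 of the 18 wholly outside. The kappa B word was covered in full in 9.37% of 630 cases and in 0 of 4. For the X1 word it was 3.18% of 1068 cases and 2 of 5. H2-D1 is not among these cases, since its open region lies outside the window around its GENCODE start. For the same reason the class I counts above take H2-D1 as without the IRF, kappa B, CCAAT and TGACG words. Its printed stretch before the RefSeq start holds each of them. The open promoter regions of H2-T23, Tap2 and Nlrc5 also lie outside the window around the main start, and those of Tapbp almost wholly. These genes likewise count as searched only near the main start. A match names letters only, and binding was not measured.

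A gene was called open when a peak of the shorter deposited list lay within 1 kb of any of its starts in both mice and the peaks overlapped. By this rule 7 of 24 class I genes and 4 of 9 class II genes were open, against 61.1% of all protein-coding genes. All 4 helpers, 1 of 2 regulators and H2-Ke6 were also open. Counting only peaks with no start of another coding gene within 1 kb left 6 class I genes, 4 class II genes and 3 helpers, against 50.1% of all genes. A region of both mice anywhere in the gene body or 5 kb each side was found for 9 of 24 class I and 5 of 9 class II genes, against 72.3%. In each of these counts both classes lay below the share of all genes. Within class I the open genes were H2-K1 and H2-D1, the classical presenting molecules, with H2-Q4, H2-Q7, H2-T23, H2-T22 and H2-M3 among the nonclassical ones. H2-M genes were open in 1 of 12 cases. Within class II the A and E chains were open in 3 of 4 cases and the O and DM chains in 1 of 5.

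**Figure D1:**
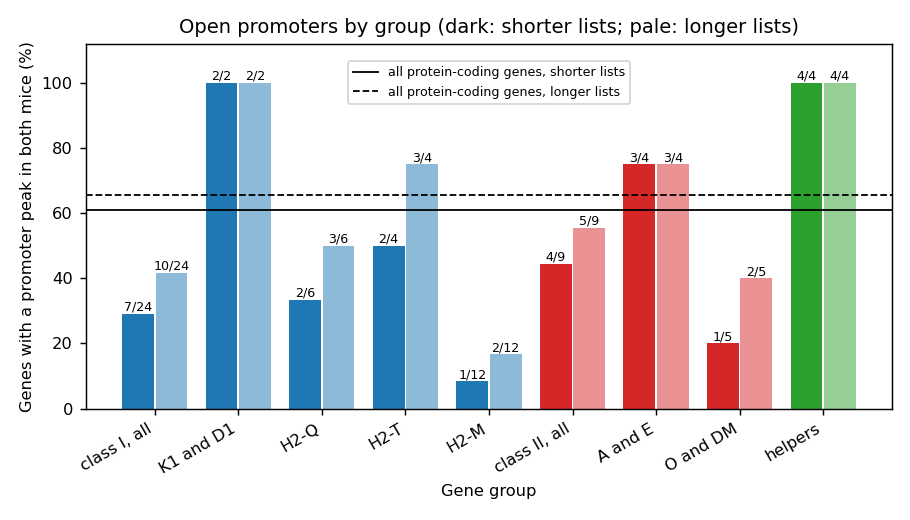
Share of genes with a promoter peak in both mice, in percent, by gene group, for the shorter (dark) and longer (pale) deposited peak lists, with the number of genes above each bar. The horizontal lines give all protein-coding genes, 61.1% and 65.5%, and both the class I bar (7 of 24) and the class II bar (4 of 9) stay below them.

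The classical class I genes differed from each other in height. The peak of H2-D1 (chr17:35262921-35263100) reached a deposited signal of 9.02 in replicate 1 and 3.96 in replicate 2. That of H2-K1 (chr17:34000261-34000500) reached 1.79 and 1.22. H2-D1 was thus the tallest class I promoter in both mice, above the median of all open promoters (4.10 and 2.94), and H2-K1 lay below that median in both. The H2-D1 peak overlaps an exon of the GENCODE gene and ends just past its RefSeq start. Only 88.0% of the 32-base words of the H2-K1 region occur once in the genome, against 94.0% at H2-D1, and whether lost reads lower a height was not tested.

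H2-M3, which presents N-formylated peptides, was the second class I promoter by height. Its peak (chr17:37270141-37270300) reached 5.65 and 3.11, and every 32-base word in it occurs once. H2-Q4 (chr17:35379441-35379640) reached 2.06 and 1.59. H2-Q7 (chr17:35438981-35439200), a Qa-2 gene, reached 1.17 and 0.808. Both lay under the median of open promoters in both mice. H2-T23, which encodes Qa-1, reached 0.839 in replicate 1 and 1.02 in replicate 2. That region (chr17:36031633-36031920) lies within 1 kb of the annotated starts but at none of them, with its centre 1078 bases inside the main start. The H2-T22 peak, at 1.03 and 0.875, lay within 1 kb of a start of Gm6034 as well. H2-T23 had the higher deposited signal in replicate 2 and the other open class I genes in replicate 1. With heights centred on the whole series, H2-T23, H2-T22 and H2-Q4 were the higher in replicate 2.

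The promoters of H2-Q7, H2-T23 and H2-T22 rest on repeated sequence, and whether reads of relatives were placed there was not tested. Words that occur once made up 41.3% of the H2-Q7 region, 65.8% of the H2-T23 region and 73.4% of the H2-T22 region. The 250 bases before the RefSeq starts were aligned end to end, and identity was the share of all columns, with gaps counted as unlike. An offset between RefSeq starts thus lowers it. By this measure H2-Q7 shared 70.7% with H2-Q6, which was not open. H2-D1 shared 82.0% with H2-Q6 and 80.4% with H2-Q10, neither of which was open, and 56.1% with H2-K1. The IRF word lies at -150 in H2-D1 and at -89 in H2-K1, so these 2 starts are offset. The shares therefore do not rank which promoters are most alike. Within 1 kb of the 5′ end of the gene record, only 29.9% of words occur once at H2-Q6, against 93.2% at H2-Q10. Whether reads were lost at H2-Q6 was not tested.

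The other 17 class I genes had no promoter peak in both mice. In the longer deposited lists H2-Q2 (0.383 and 0.252), H2-T24 (0.584 and 0.718) and H2-M5 (0.499 and 0.325) were added, which made 10 of 24. The background of that list was 65.5%. H2-Q6 had a low peak in replicate 1 alone, at 0.359. H2-Q1, H2-Q10 and 10 of the H2-M genes had no footprint in either mouse over the gene body and 5 kb each side. They also had no base there at which the deposited false discovery rate of the cut rate was under 0.05. The H2-M10 genes are known from the vomeronasal organ, and H2-Q10 encodes a secreted protein of the liver. Over all protein-coding genes 4486 of 21938 had no footprint.

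Class II promoters that were open lay on nearly unique sequence. The peak at the H2-Eb1 start (chr17:34305681-34305900) reached 3.67 and 2.26, and lower peaks at other starts of the gene reached 1.88 and 1.32, and 1.14 and 1.04. The H2-Aa peak (chr17:34287781-34288000) reached 2.61 and 1.48. H2-Ab1 had 1.30 and 0.982 at its main start (chr17:34263096-34263280). All 3 lay under the median of open promoters in both mice. H2-Aa and H2-Ab1 encode the alpha and beta chains of I-A, and H2-Eb1 the beta chain of I-E.

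A taller H2-Ab1 peak lay 5448 bases before the main start, at the start of another transcript of the gene (chr17:34257681-34257840). It reached 5.81 in replicate 1 and 1.71 in replicate 2. Once heights were centred on the whole series, as described with the ratios between the mice, this was the widest gap among the regions of the 40 genes. Every 32-base word of all these class II regions occurs once.

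The peptide exchange chains had little signal, with 1 exception. H2-DMa reached 9.44 and 6.60, but that peak (chr17:34119261-34119960) lies within 1 kb of a start of Brd2, a bromodomain gene that is transcribed in most cells. A further H2-DMa peak near no other coding gene's start, at chr17:34135321-34135640, reached 8.78 and 5.31. It lies 12649 bases into the gene from the main start, at starts of other transcripts of H2-DMa. H2-DMb1 was open in the longer lists only, at 0.687 and 0.510. H2-Ob had a low peak in replicate 2 alone in those lists, at 0.359. H2-Oa, H2-DMb2 and H2-Eb2 had no promoter peak in either list, and H2-Eb2 had no footprint at all.

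**Figure D2:**
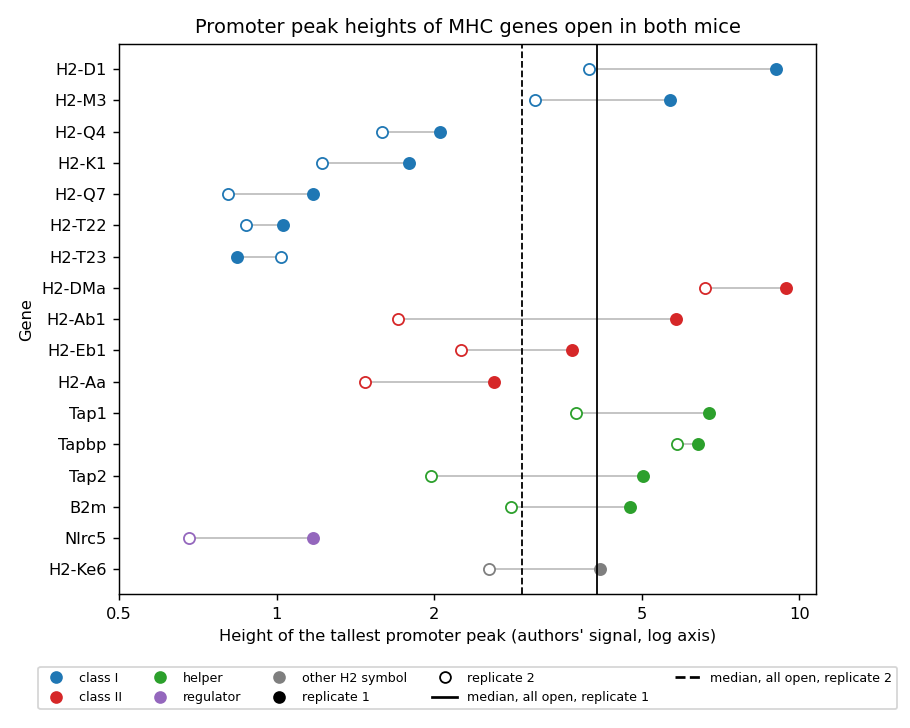
Height of the tallest promoter peak of the 17 genes open in both mice, in the authors' signal on a log axis, with replicate 1 filled and replicate 2 open. The vertical lines are the medians over all open promoters (4.10 and 2.94), and H2-D1, H2-M3 and H2-DMa are above them while H2-K1 and the H2-Q and H2-T genes are below.

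The helpers of class I were open throughout. B2m, the light chain (chr2:122147561-122147800), reached 4.75 and 2.81. Tap1, a subunit of the peptide transporter (chr17:34187341-34187560), reached 6.70 and 3.73 at a promoter that it shares with Psmb9, a subunit of the immunoproteasome. Tap2, the other transporter subunit (chr17:34204361-34204600), reached 5.01 and 1.97. Tapbp encodes tapasin, which loads peptide onto class I, and its tallest peak (chr17:33915901-33916220) reached 6.41 and 5.83 near a start of Zbtb22 as well. Its peak near no other coding start (chr17:33920841-33921040) reached 3.63 and 1.5. H2-Ke6, a steroid dehydrogenase gene with no part in antigen presentation, reached 4.15 and 2.55 (chr17:34027961-34028220). B2m and Tap2 lay above the median of open promoters in replicate 1 and below it in replicate 2.

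The regulators differed. Nlrc5 had 1 promoter peak (chr8:94434241-94434460), at 1.17 and 0.679, which is low. It lies 38412 bases before the main start, at an upstream start next to the transcript 9330175E14Rik. Ciita had no promoter peak in either mouse, and in the longer lists only replicate 2 had one, at 0.404. Both genes held open regions in introns. Those of Ciita reached 3.13 and 1.48 (chr16:10521301-10521500), and 2.93 and 1.12 (chr16:10522921-10523120).

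Class II windows held more signal per length than class I windows. The gene bodies with 5 kb each side were joined to 338.5 kb for class I and 164.7 kb for class II. Class I held 13 regions called in both mice, or 0.384 per 10 kb, and class II held 20, or 1.21 per 10 kb. All protein-coding windows joined gave 0.301 per 10 kb. Without regions near starts of other coding genes the values were 0.295 and 0.789, and all 7 class II regions left out lay near starts of Brd2 in the H2-DMa window. That window held 10 of the 20 class II regions, and without it class II had 0.709 per 10 kb. With replicate 1 alone class I was at 0.561 and class II at 1.34.

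Footprints followed the same order. Class I windows held 70.5 ± 6.36 footprints (SD, n = 2) and class II windows 110.5 ± 10.6. Per 10 kb this was 2.22 in replicate 1 and 1.95 in replicate 2 for class I, 7.16 and 6.25 for class II, and 2.03 and 1.99 over all protein-coding windows. These joined values rest on few genes. The median class I gene had 0.201 and 0 footprints per 10 kb and the median class II gene 3.53 and 3.92, against 2.30 and 2.21 over all protein-coding genes. H2-DMa held 70 and 62 of the class II footprints, and without its window class II had 3.62 and 3.05 per 10 kb. H2-K1 had 12 and 9, and H2-D1 had 8 and 6. A footprint shared by both mice lay near a start of 7 class I and 5 class II genes, against 62.2% of all genes.

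**Figure D3:**
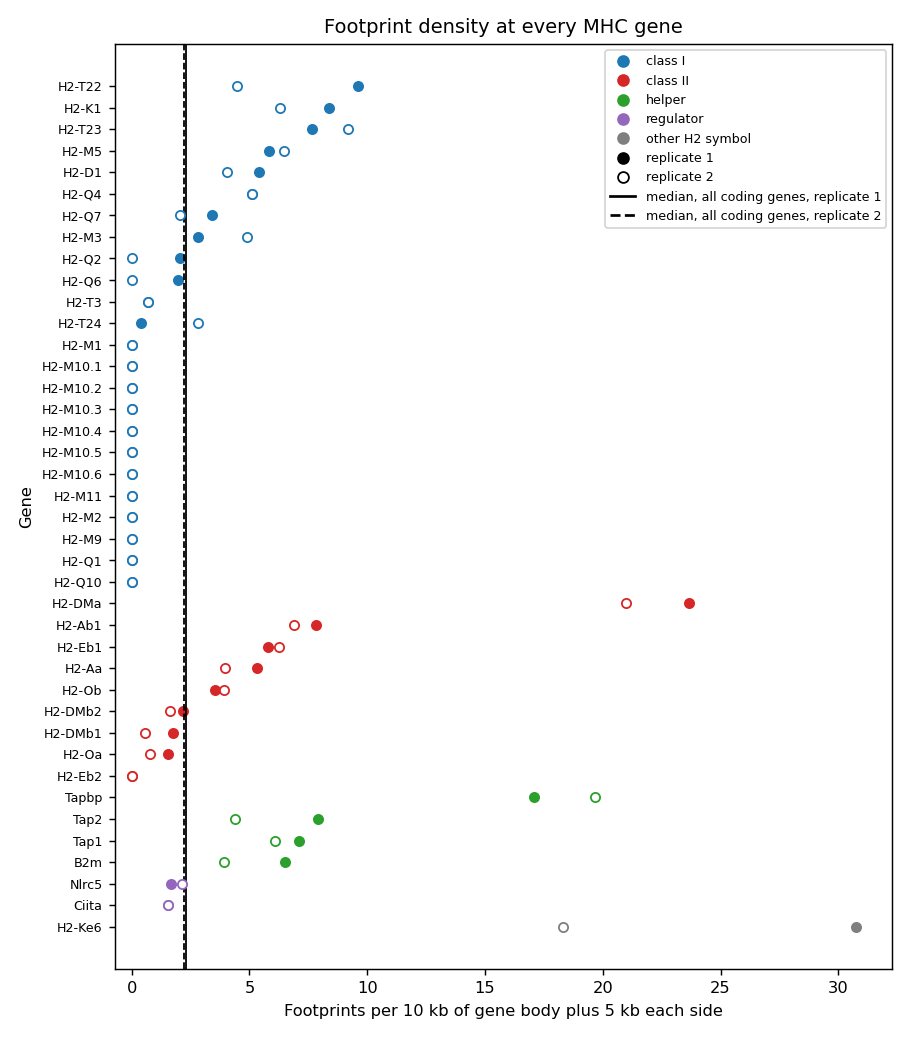
Footprints per 10 kb of gene body plus 5 kb each side for all 40 genes, grouped by class, with replicate 1 filled and replicate 2 open (only the open circle shows where both coincide). H2-DMa stands apart within class II, and 12 class I genes and H2-Eb2 are at 0 in both mice.

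Sequence uniqueness also differed between the classes. Of the 32-base words within 1 kb of the 5′ end of the gene record, which is not the main start in every gene, the median share that occurs once was 87.7% for class I, 95.8% for class II and 98.5% for all protein-coding genes. At least 90% were unique in 11 class I genes, of which 1 was open (H2-M3), while 6 of the other 13 were open. In class II 8 genes reached that share and 4 of them were open. At its main start H2-DMb2, one of the 8, had 74.1%, against 94.9% at the 5′ end of its record. Over all genes 69.3% of those above 90% were open and 26.7% of those below. Of the 17 class I genes that were not open, 10 were above 90%, 8 of them H2-M genes. How far repeats set the counts was not tested.

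**Figure D4:**
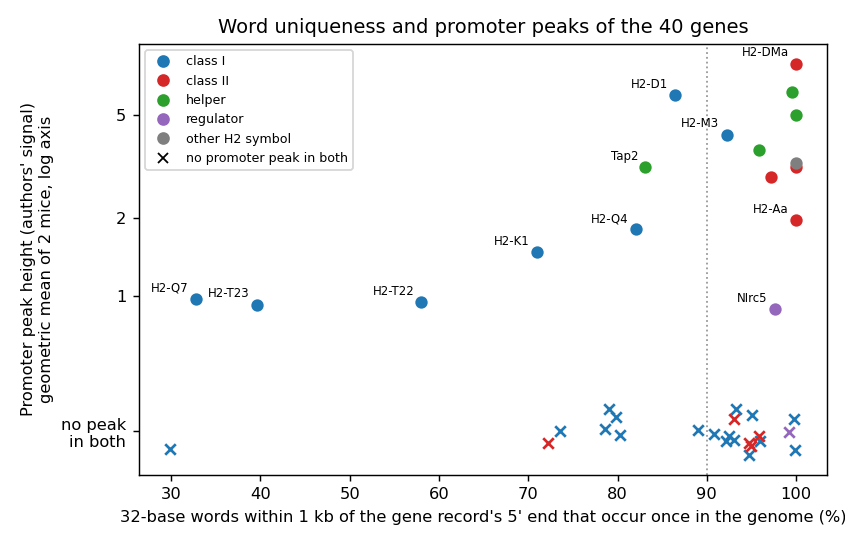
Share of 32-base words within 1 kb of the 5′ end of the gene record that occur once in the genome, in percent, against the geometric mean height of the tallest promoter peak in the 2 mice (log axis). Crosses at the bottom are genes with no promoter peak in both mice, spread vertically only for visibility. The dotted line is 90%, and 10 of the 11 class I genes to its right have no peak in both mice.

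Of 73 regions in the windows of the 40 genes, 54 were called in both mice, 17 in replicate 1 only and 2 in replicate 2 only. Away from any start, the tallest region lay 4389 bases before H2-D1 (chr17:35258241-35258440), with 7.20 and 3.19. By replicate 1 height the next lay 3938 bases before H2-Aa (chr17:34291681-34291840), with 4.17 and 1.34, but in replicate 2 regions of Ciita (1.48) and Nlrc5 (1.35) were taller than it. Replicate 1 was the higher in both. The H2-D1 region is shown as the tallest of these, with capitals as above.
H2-D1 upstream region, chr17:35258241-35258440 (+ strand): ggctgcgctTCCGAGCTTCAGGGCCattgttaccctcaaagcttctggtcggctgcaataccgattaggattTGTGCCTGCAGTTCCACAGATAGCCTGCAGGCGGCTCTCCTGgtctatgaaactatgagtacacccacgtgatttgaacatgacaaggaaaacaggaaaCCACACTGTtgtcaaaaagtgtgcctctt

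Regions were also searched for the consensus of CTCF, the factor that marks chromatin loop ends. With at most 1 mismatch allowed in its 14 positions, 11 of the 54 regions held a match, or 20.4%, against 19.4% of 48886 regions in the series. The best stretch in the H2-D1 upstream region matched 11 positions and is not counted. Matches lay in the H2-DMa peak 12649 bases into the gene, in the Tap2 peak, in the Tapbp peak near no other coding start, between H2-T23 and H2-T22, before H2-T3, in the region before H2-Ob (chr17:34235061-34235220; 2.21 and 1.06) and in the first Ciita intron region given above. Nlrc5 held 3, among them chr8:94492481-94492680 with 2.25 and 1.33.

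Heights of the 2 mice were compared as the log2 ratio of replicate 2 to replicate 1, centred on the median over all regions with 1 peak per mouse. Uncentred, that median corresponds to 0.744 of the replicate 1 height. Over 51 regions of the MHC genes the centred median was -0.12 with an SD of 0.48, and over 45612 regions of the series the SD was also 0.48. In total 3 regions lay beyond 1 in size, among them the upstream H2-Ab1 start (-1.34) and the region before H2-Aa (-1.21). All 3 lie in class II windows and were taller in replicate 1. The 11 regions with a CTCF match had a median of -0.63 and the 40 without one -0.10. In the whole series the corresponding medians were -0.49 over 9256 regions and 0.07 over 36356, in the same order as in the MHC regions. The H2-Ab1 and H2-Aa regions hold no match. With 1 library per mouse, animal and library cannot be told apart.

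**Figure D5:**
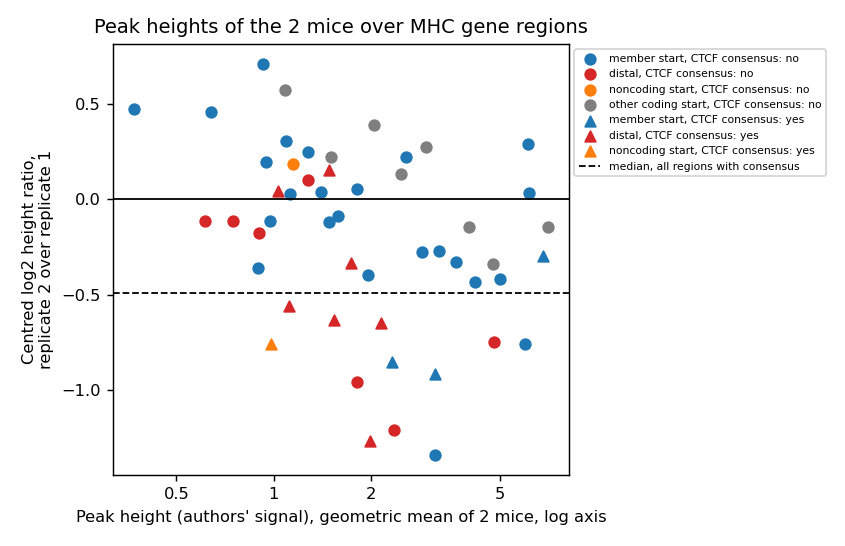
Centred log2 ratio of the heights of replicate 2 to replicate 1 for 51 regions of the MHC genes, against their geometric mean height in the authors' signal (log axis). Triangles hold a CTCF consensus match and the dashed line is the median of all matched regions in the series (-0.49). The H2-Ab1 upstream start (-1.34) is the lowest point, and the region before H2-Aa is at -1.21.

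A wider list, from antigen presentation to interferon signalling and promoter factors, was mostly open. Of 44 listed genes found in the annotation, 35 were open in both mice (79.5%), against 61.1% of all protein-coding genes. Without the interferon signalling genes and promoter factors, all of which were open, the share was near that of all genes. The 35 open genes included 5 of 5 immunoproteasome genes, 5 of 5 for folding and trimming of class I, and 13 of 13 of interferon signalling. All 7 promoter factors, among them Rfx5, Rfxap, Rfxank and Nfya, were open at 3.73 to 10.4 in replicate 1 and 3.15 to 8.45 in replicate 2. The processing genes of class II split: the broadly used proteases Lgmn, Ctsl and Ctsb were open, while Cd74, the class II invariant chain, and Ctss, the protease that trims it, were not. Cd74 had a promoter peak in replicate 1 alone, at 1.20. MHC-like genes elsewhere were open in 2 of 6 cases (Cd1d1 and Hfe), and the class I receptors Pirb, Cd247 and Lilrb4a in 0 of 3.

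Markers of cell types were counted in the same way, and the tissue itself is taken from the label. Against the same 61.1%, cortical neuron markers were open in 6 of 7 cases, astrocyte markers in 3 of 4 and oligodendrocyte markers in 2 of 4. Microglia and macrophage markers were open in 0 of 8 cases in the shorter lists. In the longer lists, where 65.5% of all genes were open, they were open in 4 of 8 (Cx3cr1, Tmem119, Aif1 and Trem2). Endothelial markers were open in 0 of 4 and then 3 of 4. Other antigen presenting and blood cell markers were open in 1 of 7 (Flt3) in both, and liver markers in 0 of 3. Of the microglial markers, Aif1 (1.26) and Trem2 (0.602) had a promoter peak of the shorter list in replicate 1 alone. In bulk tissue, fewer open cells and less cutting per cell cannot be told apart, and the cell type behind each MHC peak was not tested.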

How the data were processed

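DNase-seq was deposited for 2 libraries, 1 per mouse, on mm10 per the labels. The authors deposited 2 peak lists per library with a signal value per peak, footprints whose score is 0.01 in every row, and per-base runs with a p-value column that holds the false discovery rate of the cut rate. For aligner, peak caller and footprint caller: not given in the sources used here. Sequencing depth is unknown. The libraries hold 69208 and 69128 peaks in the shorter lists, 120027 and 120701 in the longer, and 318728 and 317176 footprints.

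Genes, starts and exons came from GENCODE. Overlapping peaks of the 2 mice (1 base or more) were joined to regions, and a start counted as open with a region in both mice within 1 kb. Windows were gene bodies plus 5 kb each side. Uniqueness is the share of 32-base words found once in the genome, on either strand. Words and the CTCF consensus (at most 1 mismatch) were searched on both strands. Region joining, uniqueness and word search were tested on simulated data. Python 3.11.15, numpy 2.4.6, pandas 2.3.3, numba 0.67.0, biopython 1.88 and matplotlib 3.10.9 were used. Named were each gene with a promoter peak in either mouse, all class II genes, helpers, regulators and the tallest regions away from starts; the CTCF search and printed regions were chosen after seeing the data. Genes and lists were chosen with earlier results of these data known. Alternatives are in the closing section. One region is not reported here.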

Additional observations from a re-analysis of the deposited data

How the results depend on the processing

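Counts of open genes kept within 1.5 times under most settings. For class I the count fell from 7 to 4 with peaks above the median height and to 1 with promoters of at least 90% unique words, and it was 7 without either replicate. For class II it stayed between 4 and 5, and for helpers and regulators at 4 to 5. Regions per 10 kb moved more. For class I (0.384) they were 0.755 with no flank, 0.650 with the longer lists and 0.148 with peaks above the median height, and 0.414 to 0.561 with 1 replicate left out. For class II (1.21) they were 1.65, 1.52 and 1.09 under the same settings, 1.12 with 10 kb flanks, 0.789 without regions at other coding starts, 0.709 without the H2-DMa window, and 1.21 to 1.34 with 1 replicate left out. Class II stayed above class I under each of these settings. Footprints in class I windows (70.5) were 29 with no flank and 39.5 inside peaks, and those in class II windows (110.5) were 47 without the H2-DMa window. Bases under the rate threshold were 8856.5 for class I, with 4433 under a rate of 0.001, 4492.5 with no flank and 12913.5 with 10 kb flanks. For class II (11620) they were 8758, 8071.5 and 13296. Settings on main starts, neighbouring starts for open genes, the H2-DMa window and longer lists for the height ratio (-0.21) were chosen after seeing the data. No paired analysis was possible because there is 1 group. The cause of each move was not tested. The number of libraries, 1 per mouse, and unknown depth limit every value.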
